A study of Danio rerio with 6 samples.

Results

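Neural miRNAs were followed at 4 loci of the adult zebrafish telencephalon, mir9-4 (ENSDARG00000083496), mir124-5 (ENSDARG00000080174), mir128-1 (ENSDARG00000081902) and dre-mir-132-2 (ENSDARG00000090368). They were picked by identifier, 1 locus for each of the families miR-9, miR-124, miR-128 and miR-132, out of 434 annotated miRNA loci. All 4 had reads in each library and passed the limit on expression, a mean normalised count above 10, which 188 of the 434 loci passed. Small RNAs were sequenced from 3 healthy, untreated telencephalic hemispheres (control) and 3 injured hemispheres (injured). The injury was a stab with a syringe needle, and the RNA was taken 5 days later. The sources used here do not give genotype, strain, sex or age of the adult fish. The study describes the control as the uninjured hemisphere, in its mRNA samples that of the opposite side. It states that RNA for the small RNA libraries was prepared in the same way. Which small RNA libraries share a fish is not stated. The RNA came from whole hemispheres, in which fewer cells of a type and less RNA in each cell cannot be told apart.

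miRNAs are short RNAs that guide Argonaute proteins to mRNAs with matching sites and lower the output of those mRNAs. The telencephalon of the adult zebrafish keeps radial glial stem cells along its ventricle and forms new neurons throughout life and after injury. miR-9 is made in neural progenitors, where it tunes the timing of neurogenesis through Hairy/Enhancer-of-split repressors, and in zebrafish it marks telencephalic stem cells. miR-124 is a hallmark of neurons across animals and, in mammals, represses transcripts of non-neuronal cells. miR-128 is enriched in neurons and in mice limits their excitability. miR-132 is induced by neuronal activity through the transcription factor CREB in rodents and acts on dendrites and synapses.

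After injury, mir128-1 was lower and the other 3 loci were not called changed. The loci span a range from the second most abundant miRNA locus of the tissue to a locus near the limit of detection. Levels are given as reads per 1000000 reads at miRNA loci (RPM), and shares as percent of those reads. Together the 4 loci took 22.2%, 21.6% and 22.5% of all miRNA reads in the control libraries and 20.5%, 22.6% and 20.4% in the injured libraries. The injured group therefore lay on both sides of the control group. The summed share was 22.1% ± 0.445 in control and 21.2% ± 1.26 in injured hemispheres (SD, n = 3 each), a difference of −0.931 percentage points (exact permutation test, two-sided, p = 0.4, adjusted p = 0.667 over 5 shares). With 3 against 3 libraries the smallest p of this test is 0.1.

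**Figure D1:**
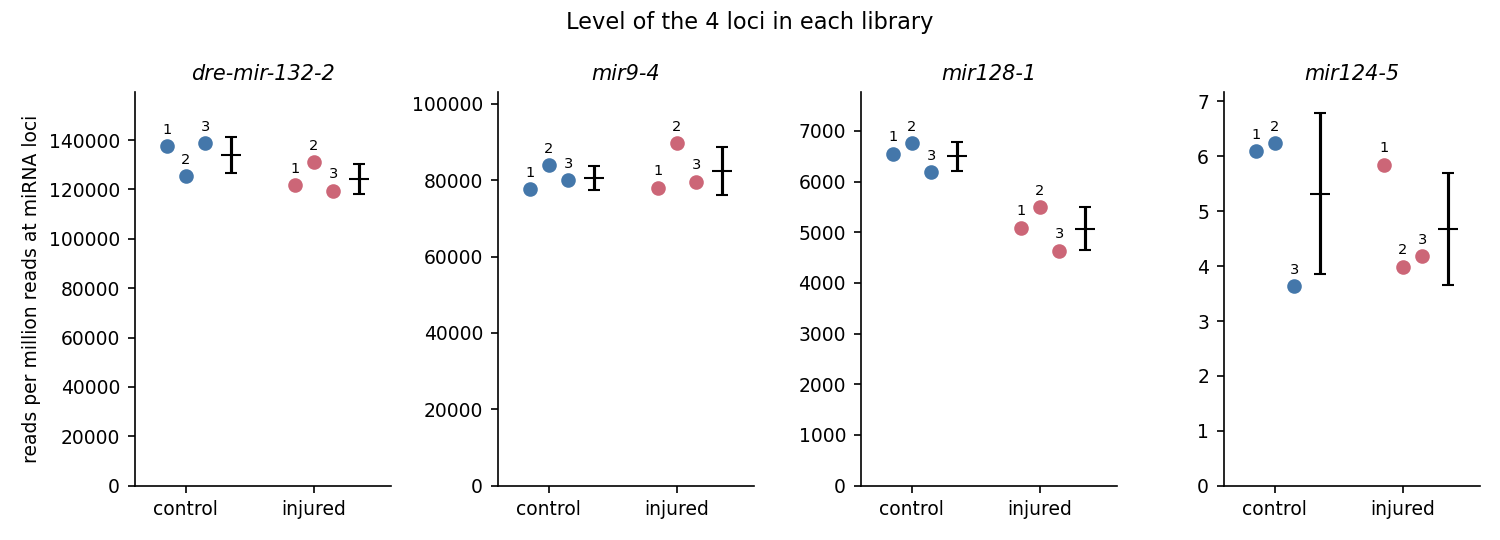
Level in RPM (vertical axes, linear, from 0) of the 4 loci in each library, numbered by replicate; the black bar is the mean with its SD (n = 3). The 3 injured libraries lie below the 3 control libraries for mir128-1, and the groups overlap for the other 3 loci.

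The order of the 4 loci was the same in 6 of 6 libraries, dre-mir-132-2 above mir9-4, mir9-4 above mir128-1 and mir128-1 above mir124-5. As the mature products have similar lengths, their reads were compared without a length correction. The order is one of reads counted at loci, and the level of a locus need not be the level of its miRNA. dre-mir-132-2 had 1.49 to 1.77 times the reads of mir9-4 in control and 1.46 to 1.56 times in injured libraries. mir9-4 had 11.8 to 12.9 times the reads of mir128-1 in control libraries and 15.3 to 17.2 times in injured libraries. mir128-1 had 871 to 1701 times the reads of mir124-5 across the 6 libraries. Each step of this order was larger than the spread between libraries.

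dre-mir-132-2 was the second most abundant locus in each of the 6 libraries. Its level was 137510, 125368 and 138664 RPM in control libraries and 121593, 130974 and 119549 RPM in injured libraries. Control 2 and injured 2 stood apart from the other libraries of their groups and made the groups overlap. The share of miRNA reads was 13.4% ± 0.737 in control and 12.4% ± 0.609 in injured hemispheres (SD, n = 3 each; exact permutation p = 0.2, adjusted p = 0.5 over 5 shares). The log2 fold change of −0.15 (SE 0.07) was not called (edgeR, quasi-likelihood, p adjusted by Benjamini-Hochberg over all tested loci = 0.249). The 95% interval reached from a fall of 18.9% to a rise of 0.394%. Directly above it in level stood MIR222, with 168589 ± 4822 RPM in control and 159546 ± 6338 RPM in injured hemispheres. Directly below stood mir92b, with 90574 ± 3367 and 92211 ± 6380 RPM. Both gaps exceeded the spread over libraries (SD, n = 3 each).

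mir9-4 ranked as the fourth most abundant locus in 5 libraries and as the third in injured 2. Control libraries had 77617, 83879 and 79927 RPM, and injured libraries had 77979, 89630 and 79597 RPM. Injured 2 was the highest of the 6, while injured 1 and injured 3 lay within the range of the controls. The means were 80475 ± 3167 RPM, or 8.05% of miRNA reads, in control and 82402 ± 6312 RPM, or 8.24%, in injured hemispheres (SD, n = 3 each; exact permutation p = 0.7, adjusted p = 0.7 over 5 shares). The log2 fold change was −0.0027 (SE 0.06, adjusted p = 0.975 by edgeR). Its sign is not determined, since it turned positive with library totals in place of the TMM factors (trimmed mean of M values) that scale libraries for edgeR. The 95% interval ran from a fall of 10.1% to a rise of 10.8%. Under TMM scaling a larger change of mean level in either direction thus lay outside it. With upper-quartile scaling the log2 fold change was −0.11 (SE 0.07, edgeR adjusted p = 0.386). Next above it in level, mir92b did not overlap with it in the control libraries and did so in the injured libraries. Next below it, MIR101-1 (70270 ± 3132 RPM in control and 68675 ± 7841 RPM in injured hemispheres) lay under it in each library.

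mir128-1 was the one member that passed the test. Its levels were 6553, 6756 and 6184 RPM in control libraries and 5091, 5494 and 4633 RPM in injured libraries. The highest injured library, injured 2, lay below the lowest control library, control 3. The locus ranked 25 or 26 in the control libraries and 31, 27 and 32 in injured 1, 2 and 3. Its share of miRNA reads was 0.650% ± 0.0290 in control and 0.507% ± 0.0431 in injured hemispheres (SD, n = 3 each; exact permutation p = 0.1, the smallest that this design can give, adjusted p = 0.5 over 5 shares). The log2 fold change of −0.40 (SE 0.07) was called by edgeR (adjusted p = 0.0157), a decrease of 24.0% with a 95% interval of 14.1% to 32.7%. Of the 188 tested loci, 24 (12.8%) were called changed in this comparison, 4 of them (2.13%) lower. The groups did not overlap in CPM (counts scaled to 1000000 reads, after TMM) at 49 loci (26.1%), with the injured libraries lower at 20 of them (10.6%).

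The size of the mir128-1 decrease varied little with the processing, while its call was lost in several refits with 1 library left out. Over 20 alternatives its log2 fold change stayed between −0.51 and −0.35, and it was called in 15 of them. The call was lost without control 1 (log2 fold change −0.38, edgeR adjusted p = 0.0688), without control 2 (−0.41, adjusted p = 0.0628), without control 3 (−0.42, adjusted p = 0.0563) and without injured 3 (−0.35, adjusted p = 0.0535). In these refits, in the same order, 10, 14, 10 and 10 of all tested loci were called, against 24 with all libraries. The mir128-1 call was also lost under Bonferroni adjustment (edgeR adjusted p = 0.204). DESeq2 called it with an adjusted p of 5.84e-06. Of the 188 tested loci, 20 (10.6%) were called higher, among them the 2 leucocyte loci named MIR142. Of the 4 loci of the leucocyte list, only these had reads. The summed level of the list was 1306, 2156 and 1844 RPM in control 1, 2 and 3. It was 2606, 4222 and 3804 RPM in injured 1, 2 and 3, without overlap. Injured 2 was thus the highest injured library for this sum and for mir128-1. No reads were counted at MIR223 and mir150, the other loci of the leucocyte list, and 0 reads allow up to 1.21 RPM in the shallowest library. Depth parted the libraries as the groups did. Control libraries held 2475462 to 4008607 reads at miRNA loci and injured libraries 11473850 to 14545864. The parts of leucocyte RNA and of reads of the sensory list (miR-96, miR-182 and miR-183, given below) in the mir128-1 decrease were not tested. With all libraries thinned to the depth of the shallowest, the log2 fold change was −0.42 (edgeR adjusted p = 0.00881). Thinning evens the number of reads only. Any other difference between libraries that goes with depth cannot be told apart from injury here.

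mir124-5 was a rare locus, with 16, 25 and 9 reads in the control libraries and 85, 46 and 48 reads in the injured libraries. Scaled to depth, these were 6.09, 6.24 and 3.64 RPM in control and 5.84, 3.99 and 4.18 RPM in injured libraries. The groups overlapped, and control 3 was the lowest library of all (exact permutation test of the share, p = 0.7). Its 9 reads allow a level from 1.66 to 6.90 RPM (95% exact Poisson interval), which covers each of the other 5 libraries, and such intervals cover counting error only. The log2 fold change was −0.24 (SE 0.25; edgeR adjusted p = 0.703), with a 95% interval from a fall of 43.9% to a rise of 27.7%. Pooled over libraries, 50 of 9110626 control reads and 179 of 37549419 injured reads gave a ratio of 0.869 (95% exact interval 0.632 to 1.21, counting error only). No change was thus detected, and at these read counts a change within these limits could not be told from no change. In level it stood between MIR196A2 (ENSDARG00000081346; 3.99 ± 1.21 and 6.03 ± 1.49 RPM) and mir1788 (3.82 ± 1.34 and 4.33 ± 1.47 RPM), from which it did not differ beyond the spread over libraries.

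**Figure D2:**
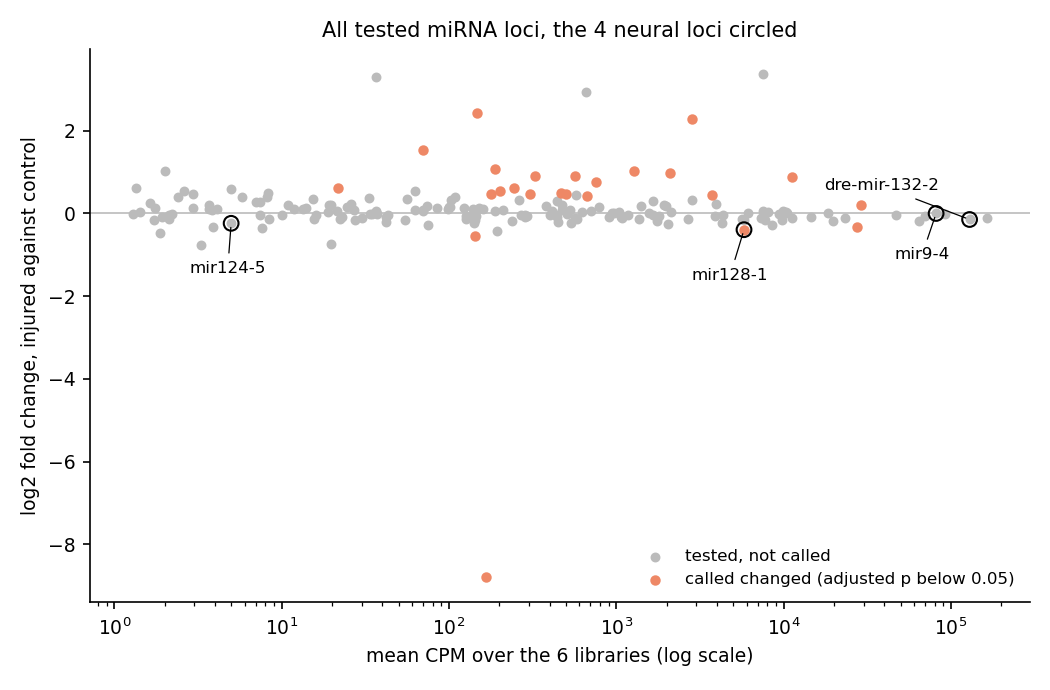
Log2 fold change of injured against control (vertical axis) by mean CPM over the 6 libraries (horizontal axis, log scale) for the 188 tested loci, with the 4 neural loci circled. mir128-1, at −0.40, is the one circled locus among those called changed.

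Ratios of reads between members were compared within libraries, since such a ratio needs no scaling factor. Of the 6 pairs, 2 had groups that did not overlap, and both involved mir128-1. For single loci the groups did not overlap in CPM at 26.1% of those tested, and the share over all pairs of loci was not computed. The log2 ratio of mir9-4 to mir128-1 was 3.57, 3.63 and 3.69 in control libraries and 3.94, 4.03 and 4.10 in injured libraries. The injured libraries were thus all higher, by 0.39 on average (exact permutation p = 0.1, adjusted p = 0.3 over 6 pairs). The log2 ratio of mir128-1 to dre-mir-132-2 was −4.39, −4.21 and −4.49 in control and −4.58, −4.58 and −4.69 in injured libraries, a difference of −0.25 (exact permutation p = 0.1, adjusted p = 0.3). mir128-1 was therefore lower in the injured libraries against either of the 2 abundant members, at the smallest p the design allows and short of the threshold. Both ratios hold the mir128-1 reads already described, so they are not separate support for its decrease. The log2 ratio of mir9-4 to dre-mir-132-2 was −0.73 ± 0.134 in control and −0.59 ± 0.0470 in injured libraries (SD, n = 3 each), with overlap through control 2 (exact permutation p = 0.3, adjusted p = 0.6). The 3 pairs with mir124-5 overlapped, with differences of 0.20, 0.19 and −0.06 and SDs of 0.330 to 0.492 within groups.

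**Figure D3:**
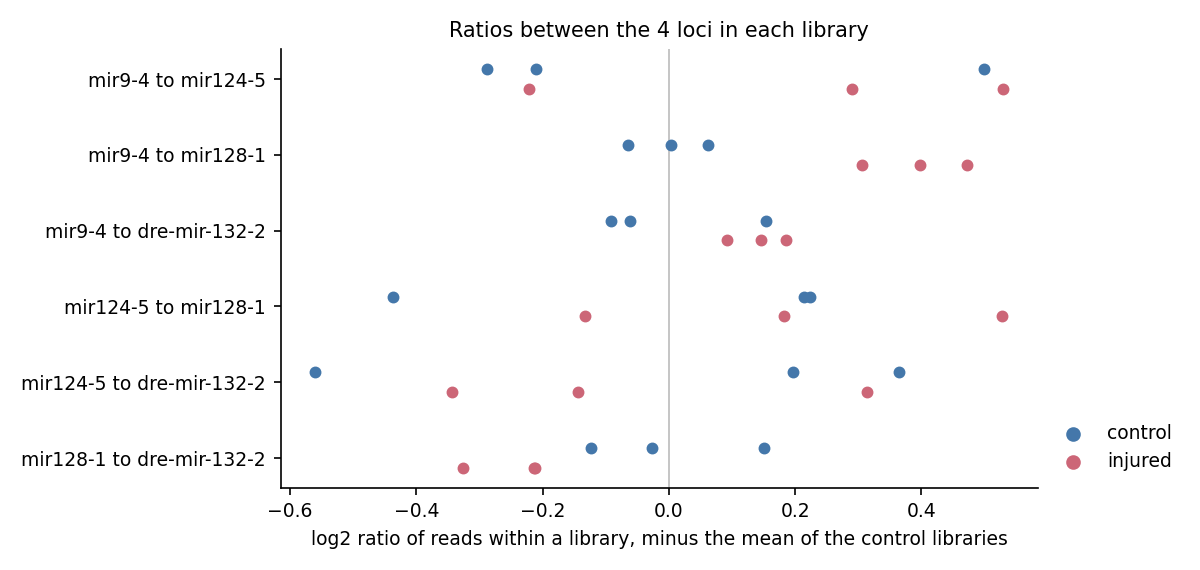
Log2 ratio of reads between 2 loci within each library, minus the mean of the control libraries (horizontal axis), for the 6 pairs of loci (rows), with control libraries in blue and injured libraries in red. The colours separate for mir9-4 to mir128-1 and for mir128-1 to dre-mir-132-2, by 0.39 and −0.25 on average.

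Each of the 4 families is encoded at several loci, and reads were spread over these loci in distinct ways. Loci were placed in families by symbol, which 331 of the 434 loci had. Numbers of loci, shares of a family and family sums thus cover named loci only, and unnamed copies cannot be told. The reads of a miRNA that fit several copies of its gene equally well may fall under the mapping quality limit used by the authors. The level of a locus therefore need not be the level of its miRNA. Reads of both arms of a hairpin are counted together at a locus. The files record 0 reads as not uniquely aligned in each library, so whether and how far such reads were lost cannot be read from them.

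The miR-9 family had 7 loci, and mir9-4 held 80.8% to 82.2% of its reads in the 6 libraries. mir9-7 (ENSDARG00000081313) held 17.8% to 19.2%, with 18166 ± 257 RPM in control and 18596 ± 1284 RPM in injured hemispheres (SD, n = 3 each). Its log2 fold change was −0.0036 (SE 0.07; edgeR adjusted p = 0.975), close to that of mir9-4. The division of reads between these 2 loci thus changed by under 2 percentage points over all libraries. The other 5 loci, mir9-6, MIR9-2, mir9-5, MIR9-1 and mir9-3, averaged 0.352 to 13.5 RPM in control libraries. Of these, mir9-3 had 0 to 13 reads per library and was not tested, and the highest log2 fold change among the others was that of mir9-6, with 0.34 (SE 0.16; edgeR adjusted p = 0.292). The summed level of the family was 98670 ± 3094 RPM in control and 101030 ± 7597 RPM in injured hemispheres.

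The miR-124 family had 7 loci, and each had few reads. mir124-1 (ENSDARG00000083634) was the highest with 18.5 ± 3.13 RPM in control and 19.4 ± 1.30 RPM in injured hemispheres, and MIR124-1 (ENSDARG00000081311) the lowest with 1.37 ± 0.330 and 1.50 ± 0.134 RPM (SD, n = 3 each). dre-mir-124-1, dre-mir-124-4, mir124-6 and MIR124-2 lay between them. mir124-5 held 6.29% to 10.7% of the reads of its family. None of the 7 loci was called, with log2 fold changes from −0.24 at mir124-5 to 0.13 at dre-mir-124-1. Summed over the 7 loci, the family had 57.1, 61.6 and 57.8 RPM in control libraries and 63.0, 56.8 and 65.8 RPM in injured libraries, which overlapped. The log2 fold change of the sum was 0.034 (SE 0.10; edgeR adjusted p = 0.896), of opposite sign to that of mir124-5 alone. The summed reads of miR-124 were thus under a hundredth of those of mir128-1 in control libraries, although miR-124 is known as an abundant miRNA of vertebrate neurons. Whether reads of miR-124 fell under the mapping quality limit was not tested.

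mir128-1 held 99.6% to 99.7% of the reads of the 2 miR-128 loci. MIR128-2 (ENSDARG00000083495) had 22.9 ± 3.44 RPM in control and 21.5 ± 2.84 RPM in injured hemispheres (SD, n = 3 each), and a log2 fold change of −0.13 (SE 0.15, adjusted p = 0.746 by edgeR). The share of the family at mir128-1 was 99.60%, 99.66% and 99.69% in control and 99.56%, 99.57% and 99.61% in injured libraries, which overlapped. With the reads of both loci summed, the decrease was called as for mir128-1 alone (log2 fold change −0.39, edgeR adjusted p = 0.0214). Nearly all reads of this sum are those of mir128-1, so it is not separate support.

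dre-mir-132-2 held 98.5% to 98.7% of the reads of the 2 miR-132 loci. dre-mir-132-1 (ENSDARG00000081190) had 1807 ± 161 RPM in control and 1788 ± 160 RPM in injured hemispheres (SD, n = 3 each), with a log2 fold change of −0.05 (SE 0.11, adjusted p = 0.857 by edgeR). dre-mir-212 (ENSDARG00000080565) belongs to a miRNA that is transcribed with miR-132 in mammals and shares its seed. It had 9.99 ± 1.68 RPM in control and 11.8 ± 0.703 RPM in injured hemispheres (log2 fold change 0.21, SE 0.16; edgeR adjusted p = 0.501). None of these loci was called.

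**Figure D4:**
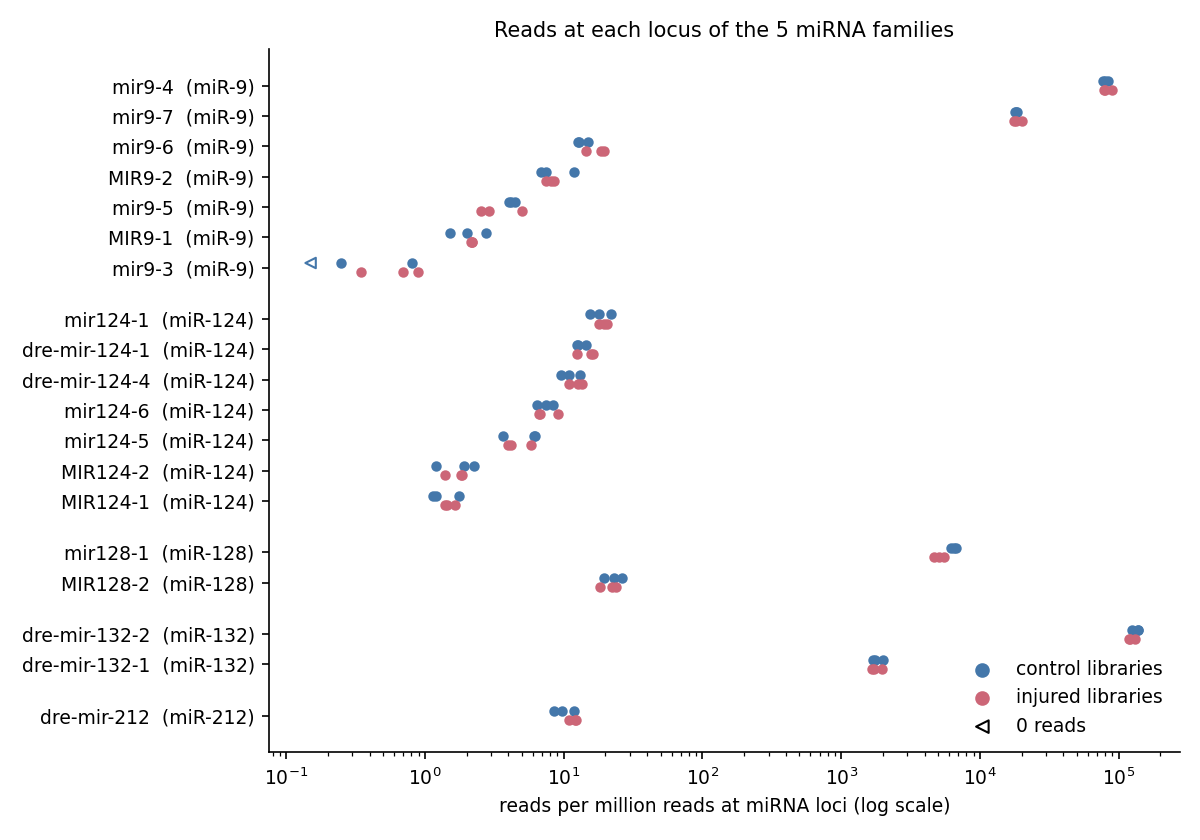
RPM of each locus of the miR-9, miR-124, miR-128, miR-132 and miR-212 families (rows) on a log scale, with control libraries in blue and injured libraries in red; an open triangle stands for 0 reads. One or 2 loci carry nearly all reads of miR-9, miR-128 and miR-132, whereas the 7 miR-124 loci all lie between 1.14 and 21.8 RPM.

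The other neural miRNAs were described by a list that adds miR-7, miR-129, miR-137, miR-138, miR-153, miR-212, miR-218, miR-219 and miR-338 to the 4 families. By symbol, the list held 38 further loci, of which 32 had reads and 31 were tested. By edgeR 0 of these 31 were called, against 12.8% of all tested loci, and DESeq2 and limma-voom also called 0. Many of the 31 had few reads. With a limit of 100 on the mean normalised count, 17 of them were left, a smaller part than of all tested loci, and 0 were called. As intervals are wider at rare loci, setting the list against all tested loci does not show that its loci changed less. At an unadjusted p below 0.05 there was 1 locus, MIR129-2 (ENSDARG00000083082; log2 fold change −0.76, SE 0.23; edgeR adjusted p = 0.0849), which had 8 to 35 reads per library. The median log2 fold change of the 31 loci was −0.0087, with 17 negative and 14 positive values, and that of all 188 loci was 0.028. Both medians moved with the scaling, and that of the list was 0.032 with library totals. Among the 31 loci, 2 (6.45%) had groups that did not overlap in CPM, MIR129-2 (ENSDARG00000083082) and dre-mir-138, both lower in injured libraries, against 26.1% of all tested loci. In RPM the groups of dre-mir-138 overlapped, with 561 RPM in control 2 and 566 RPM in injured 1. dre-mir-138, which in rodents acts on dendritic spines, had 582 ± 22.6 RPM in control and 550 ± 23.8 RPM in injured hemispheres (SD, n = 3 each), with a log2 fold change of −0.12 (SE 0.08, adjusted p = 0.453 by edgeR).

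Of the whole list, dre-mir-132-2, mir9-4 and mir153c were the most abundant loci. mir153c (ENSDARG00000081163), of a family known to act on synaptic vesicle release, had 47134 ± 3657 RPM in control and 47087 ± 10416 RPM in injured hemispheres (SD, n = 3 each). It spread widely in the injured group, with 38143, 58522 and 44595 RPM, and was not called (log2 fold change −0.04, SE 0.15; edgeR adjusted p = 0.936). Injured 2 was thus the highest injured library for mir153c, mir9-4, mir128-1 and dre-mir-132-2 alike. The 4 miR-7 loci, a miRNA of neurons and neuroendocrine cells, ranged from 150 RPM at mir7a-2 to 3920 RPM at MIR7-1 in control libraries. Their log2 fold changes lay between −0.15 and −0.0087, and none was called.

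**Figure D5:**
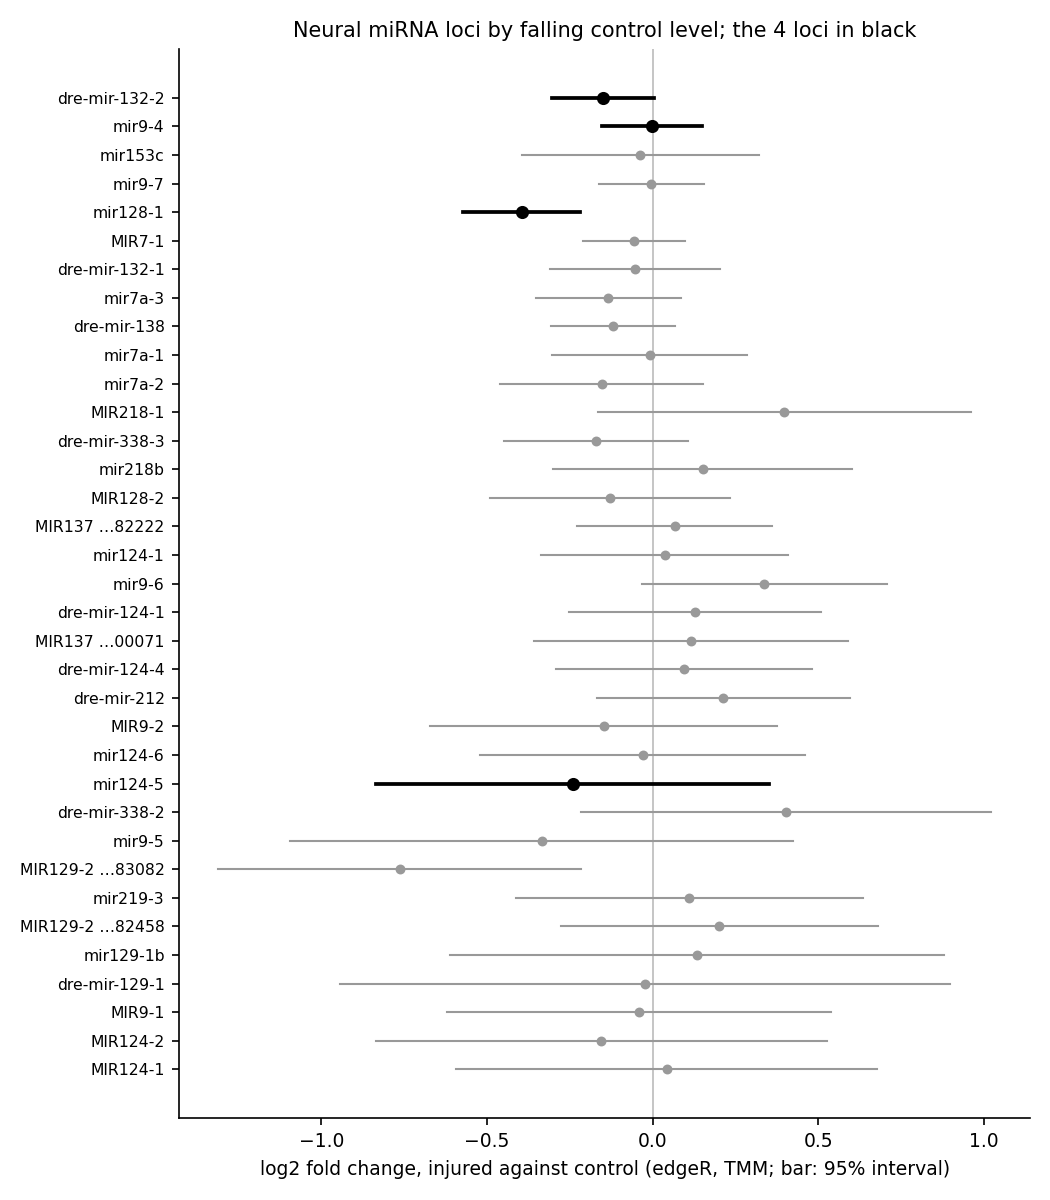
Log2 fold change of injured against control with its 95% interval (horizontal axis, edgeR) for the 35 tested loci of the neural list, ordered from high to low control level, with the 4 loci in black; loci that share a symbol carry the last digits of their identifier. Among the 10 most abundant loci, the interval of mir128-1 alone leaves out 0, and the intervals widen towards the rare loci at the bottom.

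The neuron list had reads at 19 of 20 loci, and its summed level was 134581 to 147681 RPM in control and 126643 to 139241 RPM in injured libraries. Most of that sum came from dre-mir-132-2 alone, with 119549 to 138664 RPM across the libraries. mir128-1 added 4633 to 6756 RPM, and mir124-5 added 3.64 to 6.24 RPM. The other 17 loci summed to 2450 to 2830 RPM in control and 2457 to 2769 RPM in injured libraries. The oligodendrocyte miRNAs miR-219 and miR-338 had reads at 3 of 6 loci and summed to 64.0 to 67.9 RPM in control and 55.1 to 66.6 RPM in injured libraries. The muscle list summed to 3.05 to 5.25 RPM in control and 4.12 to 6.19 RPM in injured libraries, and the miRNAs of the Hox clusters, which mark hindbrain and trunk, to 412 to 570 RPM and 390 to 571 RPM. The sensory list (miR-96, miR-182, miR-183) summed to 11527, 1406 and 31827 RPM in injured 1, 2 and 3, against 1119 to 1894 RPM in control libraries, so that injured 2 lay within the control range.

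Families were told by symbol, so an unnamed locus counted as outside them though its family is not known. Patterns over the 6 libraries were compared by the root-mean-square difference of log2 CPM, each locus centred on its own mean. The shift between groups is part of this difference. A close locus therefore has a similar fold change by the way it was picked. The 3 closest loci outside each member's own family are given. For mir9-4 these were mir125b-3, MIR190A and mir454b, with differences of 0.032, 0.033 and 0.046, against a median of 0.18 over all other loci. Within its family, mir9-7 differed from it by 0.039, and the rarer tested copies by 0.20 to 0.28. For mir128-1 the closest loci were MIR92A1 (ENSDARG00000104805), MIR15A (ENSDARG00000080168) and an unnamed locus (ENSDARG00000082399), with differences of 0.089, 0.099 and 0.11 against a median of 0.29. By edgeR MIR92A1 was called lower (log2 fold change −0.33, adjusted p = 0.00714), whereas MIR15A was not called (−0.22, adjusted p = 0.116). The unnamed locus was rare, with a mean of 1.87 CPM, and was not called (−0.48, edgeR adjusted p = 0.463). DESeq2 called MIR92A1 and MIR15A lower, with adjusted p of 5.18e-07 for MIR92A1 and 0.00775 for MIR15A. MIR128-2, the other copy of its family, differed from mir128-1 by 0.18. For dre-mir-132-2 the closest loci were an unnamed locus (ENSDARG00000082908), dre-mir-138 and MIR222, with differences of 0.044, 0.046 and 0.056 against a median of 0.21. Its family copy dre-mir-132-1 differed from it by 0.078. For mir124-5 the closest loci were mir181c, dre-mir-724 and an unnamed locus (ENSDARG00000089119), with differences of 0.20, 0.20 and 0.22 against a median of 0.34. Within its family, MIR124-2 (ENSDARG00000081423), with 3 to 27 reads per library, was closer, at 0.15. The other copies of miR-124 were farther, at 0.30 to 0.45.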

How the data were processed

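The authors made libraries from total RNA with an Illumina small RNA kit (a total RNA kit followed by gel selection per the labels), trimmed adaptors with Cutadapt to inserts of 21 to 23 nt, aligned them to GRCz11 with STAR (the submitters' processing notes list BWA) with at most 1 mismatch and a mapping quality of 30, and counted reads per miRNA locus with HTSeq. Versions were not stated. For differential expression the study's methods name DESeq2 with Bonferroni adjustment, and fold limits for strong miRNA changes. Here DESeq2 and Bonferroni adjustment were run as separate alternatives, and no fold limit was set. The deposited values are raw counts, with 434 loci and 5 summary lines per library. The summary lines, of which reads outside any locus made up 11.4% to 12.3% of all reads, entered neither library sizes nor tests.

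Counts were analysed with edgeR 4.0.16 in R 4.3.3 (quasi-likelihood test, two-sided, group as the only term). Libraries were scaled by TMM over all loci, and loci with a mean normalised count above 10 were tested. Benjamini-Hochberg adjustment ran over the 188 tested loci, with a threshold of 0.05. SEs and 95% intervals follow from the F statistic. Shares and ratios were compared by exact permutation tests, as the design allows no smaller p than 0.1. Patterns used log2 CPM with a prior count of 2. Alternatives were DESeq2 1.42.0, limma-voom (limma 3.58.1), other scalings, filters and adjustments, the replicate number as a block, libraries left out, summed families and thinned reads. The code was tested on simulated counts. Replicates of a group differed beyond sampling noise (chi-square per degree of freedom 42.8 to 1982). The labels do not say that libraries came from separate fish, so p-values measure the spread between these libraries. Symbols came from a table that named 331 of the 434 loci. In the neural list 2 loci each carry the names MIR129-2 and MIR137, and names outside it, such as MIR142, are also shared. Families were told by these symbols, so an unnamed locus was placed in none.

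The members and lists were chosen with earlier results of these data known. By rule, the text names the 4 loci, their families and miR-212, called loci and the 3 most abundant loci of the neural list, the 3 loci outside its family closest in pattern to each member, the most abundant locus, and those next to each member in level. MIR129-2 (ENSDARG00000083082), the miR-7 loci and the account of dre-mir-138 in the neural list were chosen after their values were seen.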

Additional observations from a re-analysis of the deposited data

How the results depend on the processing

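Of the 4 loci, dre-mir-132-2 kept its direction and was not called under any of 20 alternatives (log2 fold change −0.26 to −0.11), and mir128-1 stayed lower in all 20 and was called in 15. Under Bonferroni adjustment mir128-1 kept −0.40 but lost its call, by the stricter limit, and without 1 library it ranged from −0.45 to −0.35. mir9-4 changed sign, with −0.11 under upper-quartile scaling, 0.034 under library totals and a range of −0.064 to 0.049 without 1 library. Library totals moved the median of all loci by 0.040. mir124-5 changed sign when its family was summed (0.034), as did its difference in share (0.00031 percentage points) and the log2 ratios of mir9-4 to it (−0.039) and of it to dre-mir-132-2 (0.18). It ranged from −0.42 to −0.14 without 1 library and was not tested with a limit of 100. dre-mir-132-2 ranged from −0.24 to −0.11. For the sign changes not made by library totals the cause was not tested.

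Without 1 library, the difference in share ranged from −0.17 to 0.41 percentage points for mir9-4, −0.00015 to −0.000019 for mir124-5, −0.16 to −0.12 for mir128-1, −1.40 to −0.74 for dre-mir-132-2 and −1.66 to −0.54 for their sum. The difference in log2 ratio ranged from 0.034 to 0.45 for mir9-4 to mir124-5, 0.35 to 0.43 for mir9-4 to mir128-1, 0.096 to 0.22 for mir9-4 to dre-mir-132-2, −0.026 to 0.35 for mir124-5 to mir128-1, −0.34 to 0.12 for mir124-5 to dre-mir-132-2 and −0.31 to −0.18 for mir128-1 to dre-mir-132-2. Bonferroni adjustment left 6 called loci, 4 higher and 2 lower. Upper-quartile scaling, which moved the median of all loci by −0.11, called 11 higher and 5 lower, and DESeq2 called 9 lower and 22 higher. Without 1 library 10 to 24 loci were called, 7 to 18 higher and 3 to 6 lower; 10 came without control 1, control 3 or injured 3 and 14 without control 2. Of the other neural loci, 0 were called under each alternative.

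Replicate numbers are shared by the groups. Across loci, libraries of equal number deviated together from their group means, with correlations of 0.32, 0.12 and 0.082. Each library correlated best with its own number. No source says that a number marks 1 fish, so the numbers entered as a block in an alternative only. With the replicate block 22 loci were called, and mir128-1 stayed called (−0.40, edgeR adjusted p = 0.0131). As in the main fit, mir9-4 (−0.0054), mir124-5 (−0.26) and dre-mir-132-2 (−0.15) were not called. TMM factors from the tested loci alone and a filter on DESeq2-normalised counts were added after the data had been seen. With either, mir128-1 stayed called and the other members stayed not called. Low read counts limit mir124-5 most.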
